A study of Mus musculus with 10 samples.

Results

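The cytosolic ribosome is built from ribosomal RNA and a large set of small, basic proteins, whose genes carry the prefixes Rpl (large subunit) and Rps (small subunit). Their messenger RNAs are among the most abundant in any tissue, and most begin with a run of pyrimidines that ties their translation to growth signalling through mTOR. In heart muscle, ribosome content sets the capacity for protein synthesis, and ribosome production is known to rise when the muscle grows.

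Members were all probe sets of the array whose single gene symbol starts with Rpl or Rps and a digit, or is Rpsa, and 6 probe sets of Rps6k kinases were left out. The rule gave 99 of the 22690 probe sets on the array, from 47 of the 12394 genes that have a probe set with a single symbol. There were 44 probe sets of 24 large-subunit genes and 55 of 23 small-subunit genes. A further 101 probe sets carry several symbols of which at least 1 fits the rule, and they were used only as an alternative. The symbols matched RefSeq gene records for all 47 genes, where Rps4l and Rps15a-ps6 are listed as transcribed pseudogenes.

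The signals come from right ventricular RNA of 10 mice of strain 129SV, each on its own array. Trained mice were wildtype (n = 4) or plakoglobin (+/-) (n = 4), and there was a single untrained mouse of each genotype (n = 1), which makes 4 groups. Plakoglobin (Jup) is a desmosome protein, and the study asked whether its loss from 1 allele changes the response of the ventricle to endurance training. Training meant swimming at 35 °C on 6 occasions a week, with sessions built up from 5 min to 90 min. Each trained group held 2 males and 2 females aged 6 months, whereas both untrained mice were females aged 10 months. Training and age therefore cannot be told apart, and neither untrained group has a replicate. The sources used here do not say how the plakoglobin allele was made.

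Jup itself, read by 1 probe set, had signals of 2928.3, 3206.9, 3995.5 and 4322 in the trained wildtype mice and 1991.7, 3519.9, 2229.7 and 2362.8 in the trained plakoglobin (+/-) mice. In the untrained mice it went against the labels, with 2386.8 on the array labelled wildtype and 3156.9 on the array labelled plakoglobin (+/-), so no genotype direction is drawn from those 2 arrays. The 8 ventricular myocyte markers summed to signals between 1593000 and 2274000 on every array, against 1770 to 3785 for 3 atrial and 692 to 2472 for 5 skeletal muscle markers. Ratios of control probe sets set some arrays apart. For GAPDH, the 3' signal over the 5' signal was 17.8 in trained wildtype 2, 2.98 in trained plakoglobin (+/-) 1 and 2.50 in trained wildtype 1, against 0.849 to 1.02 elsewhere. For beta-actin it was 3.05 in trained wildtype 1 and 2.65 in trained plakoglobin (+/-) 1, against 0.932 to 1.29. Those last 2 arrays are both from males.

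The starts of the genes that the results below turn on are shown first, because a terminal run of pyrimidines is the feature that ribosomal protein messenger RNAs are known to share. Each window covers 10 bases before and 20 bases from the RefSeq start, on the gene's strand in build GRCm38.p6, and capitals mark a C followed by at least 4 letters that are each C or T, beginning within 5 bases of the start. The start table lists 2 starts for Rps24, Rpl22 and Rpl3l, and both are shown.
Rps9, chr7:3704031-3704060, plus strand: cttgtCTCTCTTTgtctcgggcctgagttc
Rps24, first start, chr14:24490668-24490697, plus strand: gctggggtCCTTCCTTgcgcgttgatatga
Rps24, second start, chr14:24490743-24490772, plus strand: cgccgtagccatcatggtgagtctcctcgg
Rps10, chr17:27635225-27635254, minus strand: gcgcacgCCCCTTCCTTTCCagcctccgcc
Rps18, chr17:33955646-33955675, minus strand: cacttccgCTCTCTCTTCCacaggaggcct
Rpl35, chr2:39005112-39005141, minus strand: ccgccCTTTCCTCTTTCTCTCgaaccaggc
Rpl22l1, chr3:28805498-28805527, plus strand: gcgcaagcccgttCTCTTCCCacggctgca
Rpl22, first start, chr4:152325716-152325745, plus strand: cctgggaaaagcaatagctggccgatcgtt
Rpl22, second start, chr4:152324426-152324455, plus strand: cttctggaatgttccagctcccactgacag
Rpl37a, chr1:72711250-72711279, plus strand: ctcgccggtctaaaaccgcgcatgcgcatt
Rpl3l, first start, chr17:24727816-24727845, plus strand: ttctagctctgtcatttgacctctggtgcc
Rpl3l, second start, chr17:24732675-24732704, plus strand: caacagctacagtgccccaaatgtcctgaa

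Such a run was found at 1 or more of the listed starts in 19 of the 40 member genes for which a start region was at hand, or 47.5%. It was found in 21.2% of all 27025 genes of that table and in 24.6% of 69 genes of the mitochondrial ribosome. Rps9, Rps10, Rps18, Rpl35 and Rpl22l1 had one, and Rps24 had one at its first start but not at its second. In Rpl22, Rpl37a and Rpl3l no such run began within 5 bases of a listed start. That says nothing of runs farther from these starts.

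Ribosomal protein signals were high in all 4 groups. In 31 of the 47 genes the brightest member probe set was above 10000 on every array, while the median signal of an array over all probe sets lay between 897.8 and 1150. Rps2, a small-subunit protein known for its part in accurate decoding, had the brightest member probe set, with a lowest, median and highest signal over the 10 arrays of 120648.2, 132400 and 176255.4. Rpl38, a large-subunit protein needed for axial patterning in mice, had 64129.6, 115400 and 138184.6. Rps29, a zinc-binding protein of the small-subunit head, had 87330.2, 104800 and 135302.1, Rpl41, a very short peptide of the large subunit, 49156.5, 94530 and 132365.4, and Rpl4, which lines the exit tunnel, 69479.3, 79940 and 97991.3. All of these were bright on every array of every group. Signals of different probe sets depend on their probes, so this order is one of signals and not of RNA amounts.

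At the other end were Rpl12 (209, 760.4 and 1403.2), Rps6 (181, 578.6 and 2431.8), Rpl14 (108.5, 502.4 and 822.1), Rpl39l (18, 65.75 and 519.1) and Rps15a-ps6 (11, 104.8 and 304.5). Rps6 is the substrate of the S6 kinases and is read by 2 dim member probe sets, the brighter of which is given. Further Rps6 probe sets share their probes' annotation with Rps6-ps4 and are not among the members. Rpl12 and Rpl14 also have probe sets with several symbols, and for all 3 genes some of these were bright. Over the 10 arrays, 1 such probe set read 71738.1 to 115449.4 for Rps6, 43375.7 to 65543.9 for Rpl12 and 30180.7 to 51602.7 for Rpl14. The low values of these 3 genes are therefore those of their member probe sets only. Rpl39l, a paralog of Rpl39 known from testis, was at or under the floor of 104 on 6 arrays, and Rps15a-ps6 on 5. These 5 genes had no member probe set bright enough to be tested. Tested were 81 member probe sets of 42 genes, 39 of the large and 42 of the small subunit. The 18 others fell under a mean log2 signal of 9.37. Just outside that limit lay Rpl12 at 9.31 and 1 Rps10 probe set at 9.26, and just inside lay Rps4l at 9.42 and Rpl27a at 9.62.

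**Figure D1:**
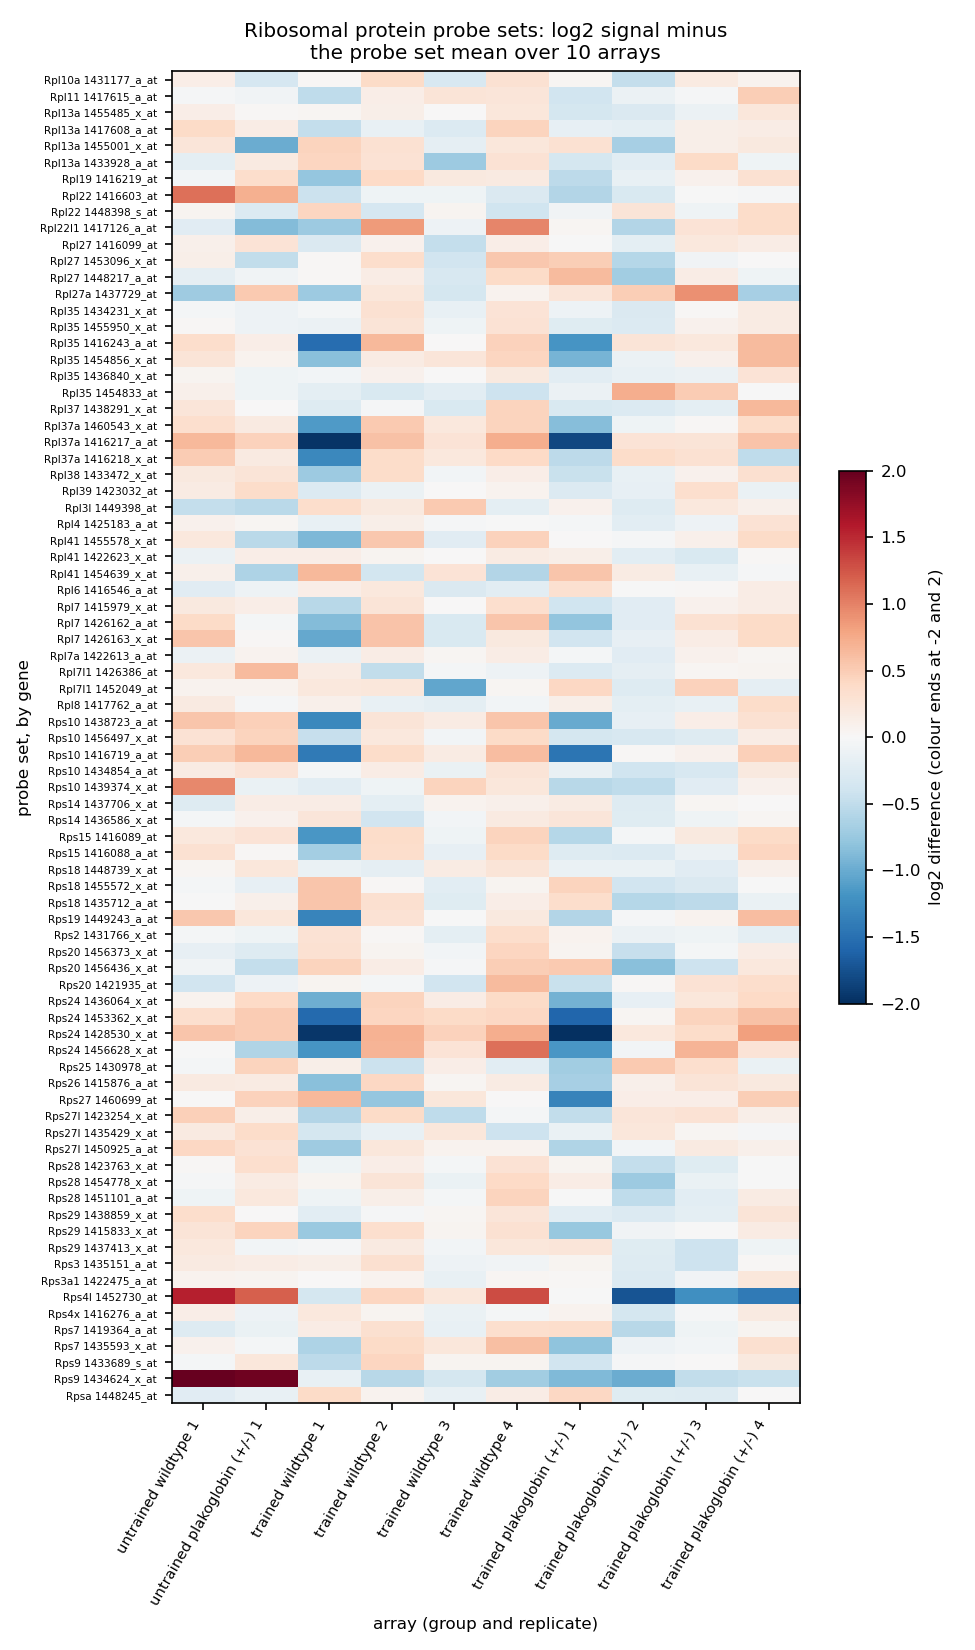
Each row is 1 of the 81 tested probe sets and each column 1 of the 10 arrays, ordered by group. Colour gives the log2 signal minus the probe set's own mean over 10 arrays, with colours ending at -2 and 2. Most rows are pale. The deepest blue cells lie in trained wildtype 1 and trained plakoglobin (+/-) 1, and the 2 red cells of Rps9 1434624_x_at lie in the untrained arrays.

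Trained against untrained mice, ribosomal protein genes showed almost no shift as a group. Of 81 probe sets, 1 passed the threshold (a Benjamini-Hochberg adjusted p under 0.05 in limma over 13576 probe sets) and it was lower in trained mice. Over all 13576 probe sets, 0.626% passed, and 0.354% passed with a lower signal. The median log2 change of the members was 0.04, beside -0.00 over all probe sets, and 48 of 81 were higher (59.3%, against 49.8% of all). The change was smaller than 0.5 in size for 71 of 81 members (87.7%), against 77.1% of all. At an unadjusted p under 0.05 there were 3 higher and 4 lower members, or 8.64%, against 8.68% of all probe sets.

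The large subunit had a median log2 change of 0.09 with 27 of 39 probe sets higher, and the small subunit -0.04 with 21 higher and 21 lower. Because the fit has a term for sex and both untrained mice were female, these estimates rest on the 4 trained females against the 2 untrained females. Without that term the direction of the median turned, to -0.11 with 55 of 81 probe sets lower. In bulk tissue, fewer cells of a type and less RNA per cell cannot be told apart. Markers of other cell types leaned lower in trained mice, with 0 past the threshold. Summed leukocyte markers read 24490 and 21020 on the arrays labelled untrained wildtype and untrained plakoglobin (+/-), and 10550 to 21100 on the trained arrays. The untrained plakoglobin (+/-) value lay within the trained range. Lower were 6 of 7 tested leukocyte markers (median log2 change -0.90), 5 of 6 fibroblast markers (-0.47), 5 of 6 endothelial markers (-0.15) and 2 of 2 lung epithelium markers (-0.75), whose sums were 3479 and 3390 untrained and 1723 to 3262 trained. Of the ventricular myocyte markers 7 of 8 were lower (-0.21). The part of cell composition in the member values was not tested.

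Rps9, a protein of the small-subunit body near the entry of the messenger RNA, held the member that passed. Its probe set 1434624_x_at gave 8076 on the array labelled untrained wildtype and 5049.6 on the array labelled untrained plakoglobin (+/-). In trained wildtype mice it gave 1174.1, 894.6, 1019.6 and 803.1, and in trained plakoglobin (+/-) mice 712.1, 655.6, 926.1 and 962.1. Both untrained arrays stood far above all 8 trained arrays, and the 2 trained genotypes overlapped. The signal fell by 2.84 on the log2 scale (SE 0.30, limma adjusted p = 0.001866), a 7.14-fold lower signal in trained mice. The call needs both untrained arrays: without the wildtype one the log2 change was -2.63 with an adjusted p of 0.0575 in limma, and without the plakoglobin (+/-) one -3.04 with 0.0579.

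The brightest probe set of Rps9 did not show this drop. It is 1433689_s_at, which gave 36478.8 and 43696.9 on the arrays labelled untrained wildtype and untrained plakoglobin (+/-). It gave 26045.4, 50264.2, 39149.4 and 39004.7 in trained wildtype mice and 28810.5, 37086.4, 37668.1 and 42902.7 in trained plakoglobin (+/-) mice. The groups overlapped, and the log2 change was 0.08 (SE 0.21, limma adjusted p = 0.967). Within an array, the log2 signal of 1434624_x_at minus that of 1433689_s_at was -2.18 and -3.11 in the untrained mice, and between -5.82 and -4.47 in the trained mice. The third probe set, 1426958_at, was too dim to be tested, with signals of 193.5 and 406.6 untrained and 45.5 to 467.6 trained. An x_at name marks probes that may match other transcripts too, and which transcript the probes of 1434624_x_at read was not tested.

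**Figure D2:**
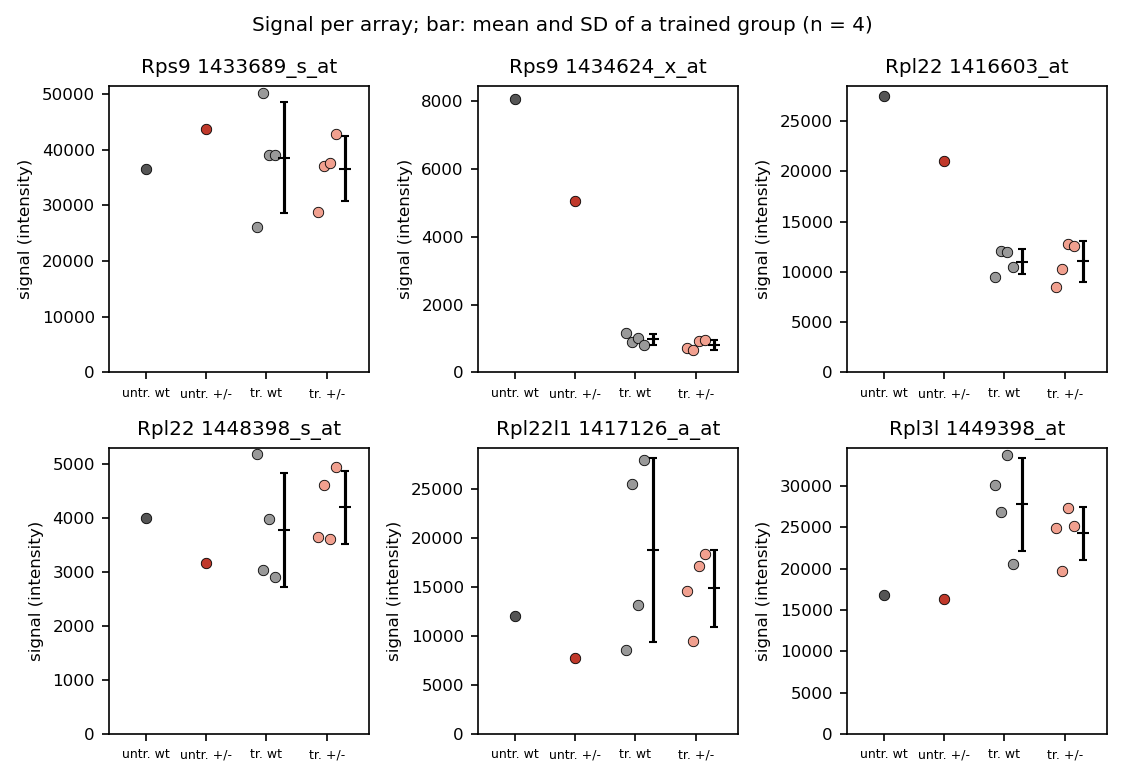
Signal (intensity, linear axis from 0) on each array in the 4 groups, for 6 probe sets of Rps9, Rpl22, Rpl22l1 and Rpl3l. Points are mice, and bars give the mean and SD of a trained group (n = 4). Rps9 1434624_x_at falls from 8076 and 5049.6 to at most 1174.1, while Rps9 1433689_s_at overlaps between all groups.

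Rpl22 and its paralog Rpl22l1 had the next smallest p values, in opposite directions, and neither passed. Rpl22 is a large-subunit protein that is dispensable in many tissues and is known to bind and restrain the messenger RNA of Rpl22l1. Rpl22 probe set 1416603_at gave 27529.3 and 21017.1 on the arrays labelled untrained wildtype and untrained plakoglobin (+/-). It gave 9469.6, 12118, 12013.9 and 10510.8 in trained wildtype mice and 8534.5, 10320.6, 12750.4 and 12574 in trained plakoglobin (+/-) mice. All 8 trained arrays lay below both untrained arrays. The log2 change was -1.01 (SE 0.20, limma adjusted p = 0.0542). It was past the threshold without the 3 arrays of GAPDH ratio above 2 (adjusted p = 0.0165) and without the sex term (adjusted p = 0.0207), and narrowly so without trained plakoglobin (+/-) 1 alone (limma adjusted p = 0.0492). The second Rpl22 probe set, 1448398_s_at, gave 4004.5 and 3172.4 untrained and between 2910.4 and 5189.1 trained, with a log2 change of -0.01 (SE 0.26).

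For Rpl22l1, probe set 1417126_a_at gave 12063.9 and 7729 on the arrays labelled untrained wildtype and untrained plakoglobin (+/-). Trained wildtype mice gave 8567, 25474.2, 13195.5 and 27946.9, and trained plakoglobin (+/-) mice 14539.3, 9470.5, 17099.4 and 18311.7. The 4 trained females, with 17099.4 or more, were all above both untrained females, while 2 of the 4 trained males lay between them. The log2 change was 1.17 (SE 0.27, limma adjusted p = 0.114), and without the sex term 0.69 (adjusted p = 0.688). It was past the threshold among females alone (limma adjusted p = 0.0104) and without the 2 arrays of high actin ratio (adjusted p = 0.00376). Leaving out trained plakoglobin (+/-) 1 alone gave 0.0378 and trained wildtype 1 alone 0.0497 as the adjusted p in limma.

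Members whose trained and untrained arrays did not overlap numbered 5 of 81 (6.17%), against 9.24% of all probe sets tested. Higher in every trained mouse was Rpl3l, the paralog of Rpl3 found in heart and skeletal muscle. It gave 16829 and 16269.5 untrained and a lowest, median and highest trained signal of 19689.1, 26040 and 33780.3. Its log2 change was 0.58 (SE 0.22, limma adjusted p = 0.437), which did not pass. Rpl3 itself was read only by probe sets with several symbols and is not among the members. Lower in every trained mouse were the Rps9 and Rpl22 probe sets above, 1 probe set of Rpl7l1 and 1 of Rps27l.

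Rpl7l1, a paralog of Rpl7, gave 3317.9 and 4420.6 untrained and 2029.8 to 3192.9 trained with probe set 1426386_at, a log2 change of -0.55 that did not pass. Its other probe set changed by 0.06. Rps27l, a paralog of Rps27 induced by p53, had 3 probe sets with log2 changes between -0.41 and -0.11, none past the threshold. Rps4l gave 2012.2 and 1579.7 untrained and a lowest, median and highest trained signal of 208.5, 611.4 and 1703.2, a log2 change of -1.60 (SE 0.63, limma adjusted p = 0.47). The highest trained value of Rps4l lay between the untrained ones, so the groups overlapped. Rps4l passed the filter only through its high untrained arrays. Its mean log2 signal was 9.25 in the 2 trained arrays of high actin ratio and 9.02 in the 6 other trained arrays. Both lie under the limit of 9.37, so no training change is read from Rps4l.

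Rps24, a small-subunit protein mutated in Diamond-Blackfan anaemia, had 4 tested probe sets, all higher in trained mice by 0.05 to 0.98. The 0.98 belonged to 1456628_x_at, which gave 20810.5 and 13913.7 untrained and 9313.5, 25390 and 45016.5 as the lowest, median and highest trained signal (SE 0.39, limma adjusted p = 0.482). The 2 arrays of high actin ratio gave its lowest signals. Without them the change stayed at 0.98 with a smaller SE of 0.17, past the threshold (limma adjusted p = 0.0299). Without the 3 arrays with a raised GAPDH ratio it was 1.07, also past the threshold (limma adjusted p = 0.00777). Of the remaining members with the smallest p values, Rpl13a 1455001_x_at had a log2 change of 0.59 and Rpl41 1455578_x_at of 0.53. Neither passed.

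The agreement of probe sets that read the same gene was described for the 19 genes with at least 2 tested probe sets. Their training changes spanned a median of 0.30 within a gene on the log2 scale, under 0.3 in 11 genes and over 1 in 2, Rps9 (2.92) and Rpl22 (1.001). After these came Rps24 (0.93), Rpl13a (0.72) and Rpl7l1 (0.61). The closest agreement was in Rps15 (0.01), Rps29 (0.05), Rps7 (0.06), Rps14 (0.13) and Rps20 (0.19). All probe sets of the gene had the same sign in 9 genes, and signs were mixed in 10. The tested probe sets of Rps20 were all higher by 0.36 to 0.55, and the 5 of Rps10 all lower (-0.41 to -0.15), with none past the threshold.

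Several of these genes also have probe sets that were too dim to be tested: 3 of 6 for Rps18, 2 of 6 for Rps24, and 1 each for Rpl41, Rps20, Rps9 and Rps10. Rps18 1421838_at was at or under the floor on 7 arrays and Rps9 1426958_at on 5, so no change can be read from them. Probe sets with the plain suffix _at were dim more often: 15 of 30 were tested, against 38 of 40 with x_at, 26 of 27 with a_at and 2 of 2 with s_at.

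**Figure D3:**
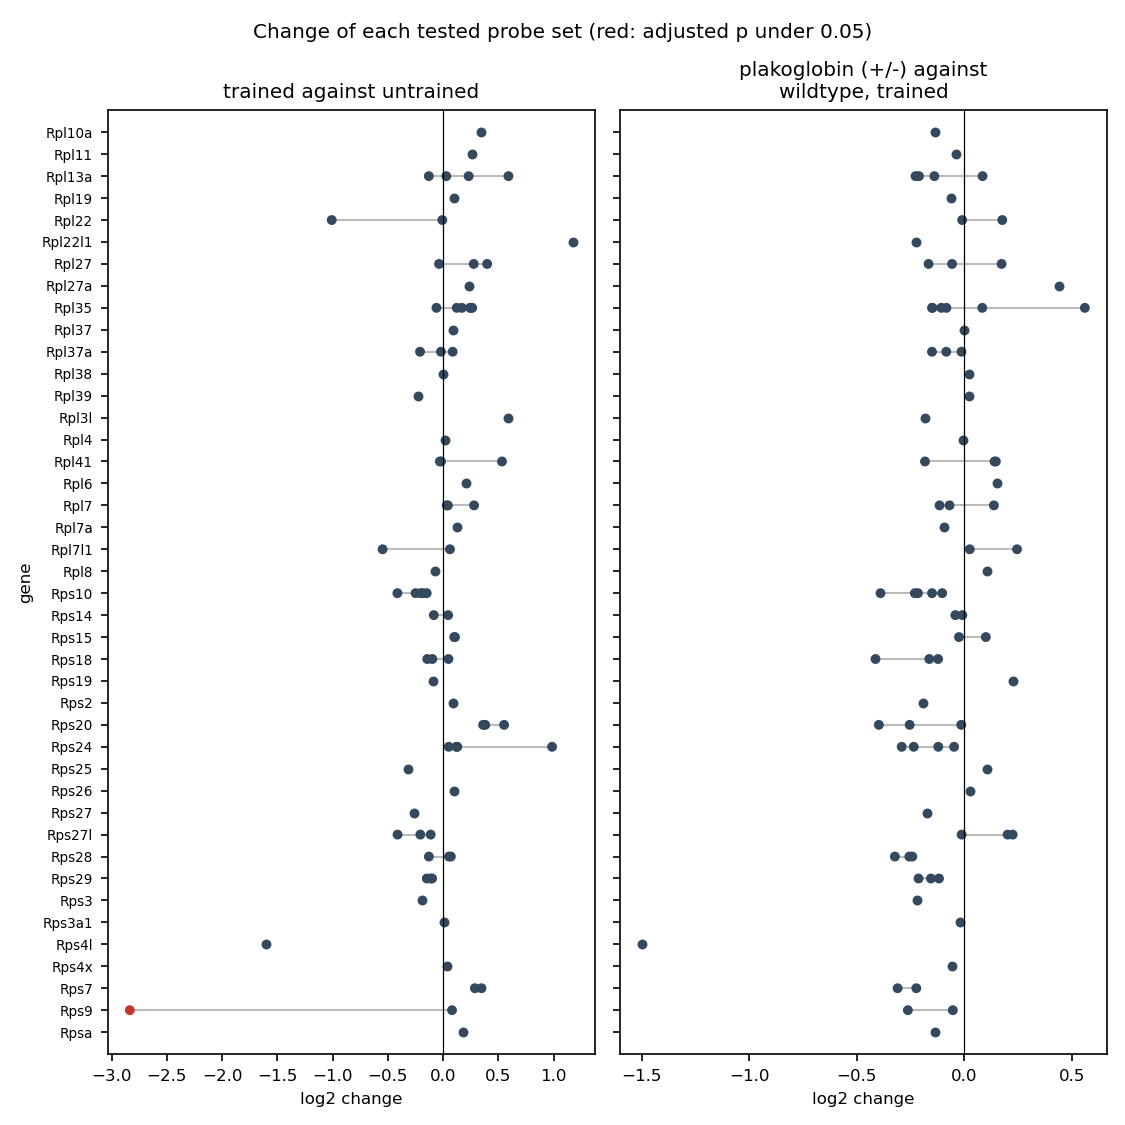
Log2 change of each tested probe set (points), grouped by gene on the vertical axis with a grey line from the lowest to the highest value of the gene. The left panel shows trained against untrained mice and the right panel plakoglobin (+/-) against wildtype among trained mice. The single red point, past an adjusted p of 0.05, is Rps9 at -2.84, and the second Rps9 point lies at 0.08.

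Genotype was compared in the 8 trained mice, and no ribosomal protein probe set differed past the threshold. In limma, 0 of 81 passed, as did 0 of 13576 probe sets (0%), and the smallest adjusted p among members was 1. At an unadjusted p under 0.05 there was 1 member, against 273 of all probe sets (2.01%). The signs leaned 1 way: 59 of 81 members (72.8%) were lower in plakoglobin (+/-) mice, against 48.1% of all probe sets, with a median log2 difference of -0.09 beside 0.01. Small-subunit probe sets were lower in 36 of 42 (median -0.15) and large-subunit ones in 23 of 39 (median -0.04). Genes with several probe sets count more than once here. With 1 probe set per gene, 28 of 42 were lower and the median was -0.06.

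This lean is smaller than the difference between the sexes given below (median -0.29). Within each sex, the members' median log2 deviation was lower on both plakoglobin (+/-) arrays than on both wildtype arrays. It was -0.20 and -0.20 against -0.16 and -0.05 in the trained males, and 0.03 and 0.16 against 0.21 and 0.25 in the trained females. The lean depends on scaling. After quantile normalization 47 of 81 were lower (median -0.03), and the same count came from cyclic loess. Without trained plakoglobin (+/-) 1 the count was 43 of 81, without trained wildtype 3 it was 44, and without the 2 arrays of high actin ratio it was 60 with a median of -0.15. The 8 ventricular myocyte markers were lower in 8 of 8, with a median log2 difference of -0.14 and 0 past the threshold, and whether this bears on the members was not tested.

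Rps4l was the member with an unadjusted p under 0.05. The mean log2 signal of its trained arrays lay under the filter limit, as given above, so no genotype difference is read from it. Trained wildtype mice gave 537.1, 925.6, 805.6 and 1703.2 and trained plakoglobin (+/-) mice 685.6, 208.5, 292 and 256.5. Of the plakoglobin (+/-) values, 3 lay below all wildtype values and 1 among them. The log2 difference was -1.50 (SE 0.58, limma adjusted p = 1). Rpl35, a large-subunit protein beside the exit tunnel, had the only probe set whose trained genotypes did not overlap (1.23% of members, 1.6% of all). Its dim probe set 1454833_at gave 877.1, 815.1, 868.1 and 754.6 in wildtype and 931.1, 1672.7, 1422.7 and 1002.6 in plakoglobin (+/-) mice. The log2 difference was 0.56 (SE 0.29) and did not pass, and the 2 untrained arrays, at 1078.1 and 946.1, lay above all trained wildtype arrays. The lowest of the 6 Rpl35 probe sets differed by -0.15.

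In 10 of the 19 genes with several tested probe sets all were lower in plakoglobin (+/-) mice, and in 1, Rpl7l1, all were higher. The span within a gene had a median of 0.24. Rps28, which lies near the exit of the messenger RNA, had log2 differences of -0.32 to -0.24 in its 3 probe sets. Rps18, of the small-subunit head, had -0.41 to -0.12 in 3, and Rps10, known from stalled ribosomes, -0.39 to -0.10 in 5. Rps29 had -0.21 to -0.12 and Rps7 -0.31 to -0.22. None of these differences passed the threshold. The remaining members of smallest p did not pass it either: Rps27l, with 0.23 and 0.20 in 2 probe sets, Rpl27a with 0.44, Rpl27 1416099_at with 0.17 and Rpl13a 1455485_x_at with -0.23.

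The difference between the genotype effects in trained and untrained mice was tested as an interaction. In limma 0 of 81 members passed, and 0 of 13576 probe sets (0%). At an unadjusted p under 0.05 the counts were 0 members and 434 of all probe sets (3.2%). The members' median was -0.03, and its sign turned under quantile normalization (0.08) and cyclic loess (0.09). Each untrained group holds 1 mouse that was assumed to vary like the others, and the Jup signals of those mice went against their labels.

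The array-by-array values separated the sexes among trained mice. Relative to each probe set's mean over 10 arrays, the members' median log2 deviation was -0.16, -0.05, -0.20 and -0.20 in the trained males (wildtype 1 and 3, plakoglobin (+/-) 1 and 2). It was 0.21, 0.25, 0.03 and 0.16 in the trained females (wildtype 2 and 4, plakoglobin (+/-) 3 and 4), and 0.12 and 0.11 in the untrained females. All 4 males lay below all 6 females. Sex was therefore compared with limma over the 8 trained mice with a term for genotype, a comparison chosen after these values were seen.

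Males had the lower signal in 67 of 81 member probe sets (82.7%), against 49.1% of all probe sets tested, and the median log2 difference was -0.29 beside 0.01. No member passed the threshold: 0 of 81, where 7 of 13576 (0.0516%) passed, and the smallest adjusted p was 0.197. At an unadjusted p under 0.05 were 33 members (40.7%), 32 of them lower in males, against 8.82% of all. The sexes did not overlap in 20 members (24.7%, against 5.89% of all), lower in males in 19 of them. Both subunits showed this, with 33 of 39 large-subunit probe sets lower (median -0.34) and 34 of 42 small-subunit ones (median -0.23).

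The direction held without the 2 male arrays of high actin ratio, where 71 of 81 were lower with a median of -0.27, and after quantile normalization, where 61 were lower with a median of -0.25. Leaving out each trained mouse in turn gave 60 to 71 lower and medians from -0.38 to -0.22. Of 19 genes with several tested probe sets, 11 had all of them lower in males, 7 were mixed, and 1, Rps14, had both higher. Of 23 genes with 1 tested probe set, 20 were lower.

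Rpl7, a large-subunit protein, stood out by p. Its probe set 1426162_a_at gave 11703.3, 17163.4, 12361.5 and 18243.9 in the trained males and 31753.4, 31265.3, 26374.9 and 27749.4 in the trained females, with 27824.8 and 20809.1 in the untrained females. Every male lay below every female. The log2 difference was -1.001 (SE 0.19, limma adjusted p = 0.197), and the other 2 Rpl7 probe sets had -0.79 and -0.50. Rpl22l1 followed with -0.96 (SE 0.23, limma adjusted p = 0.442), with trained males at 8567 to 14539.3 and trained females at 17099.4 to 27946.9. Rps15, of the small-subunit head, differed by -0.81 and -0.60 in its 2 probe sets, and Rps19, also known from Diamond-Blackfan anaemia, by -0.78. Larger in size were the differences of Rps24 (-1.57 to -0.85 in 4 probe sets) and Rpl37a (-1.34 to -0.45 in 3). Rps24 and Rpl37a were also far lower on the 2 male arrays of high actin ratio, as described below. Without the 2 male arrays of high actin ratio the log2 difference was smaller for Rps19 (-0.31) and for Rps15 (-0.41 and -0.48), and -0.72 for Rpl7 1426162_a_at, while Rpl22l1 had -0.96. These genes were named after their values were seen, and none passed with or without those arrays.

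The sex differences of other genes of the protein synthesis machinery are given beside these, without a test between lists. The stalk and fusion proteins Rplp0, Rplp2 and Fau were lower in males in 3 of 3, with a median log2 difference of -0.23. The 74 mitochondrial ribosomal proteins, which share the naming but serve a separate ribosome, were lower in males in 37 and higher in 37, with a median log2 difference of -0.01. The 11 elongation factors and companions had a median of -0.18 with 7 lower, and the 22 nucleolar and biogenesis genes 0.13 with 7 lower. Initiation factors were lower in males in 11 of 17 (median -0.05). Genes through which growth signals control translation were lower in 7 of 11 (median -0.10). Ventricular myocyte markers were lower in males in 8 of 8 (median -0.14) and the 7 tested leukocyte markers were higher in 7 (median 0.31). Fibroblast markers were higher in males in 4 of 6 (median 0.22) and endothelial markers in 4 of 6 (median 0.15). The 1 tested erythroid marker was higher by 1.77. Summed leukocyte signals were 15960 to 21100 in trained males and 10550 to 16910 in trained females. In all of these lists 0 genes passed the threshold, and the part of cell composition in the member values was not tested.

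**Figure D4:**
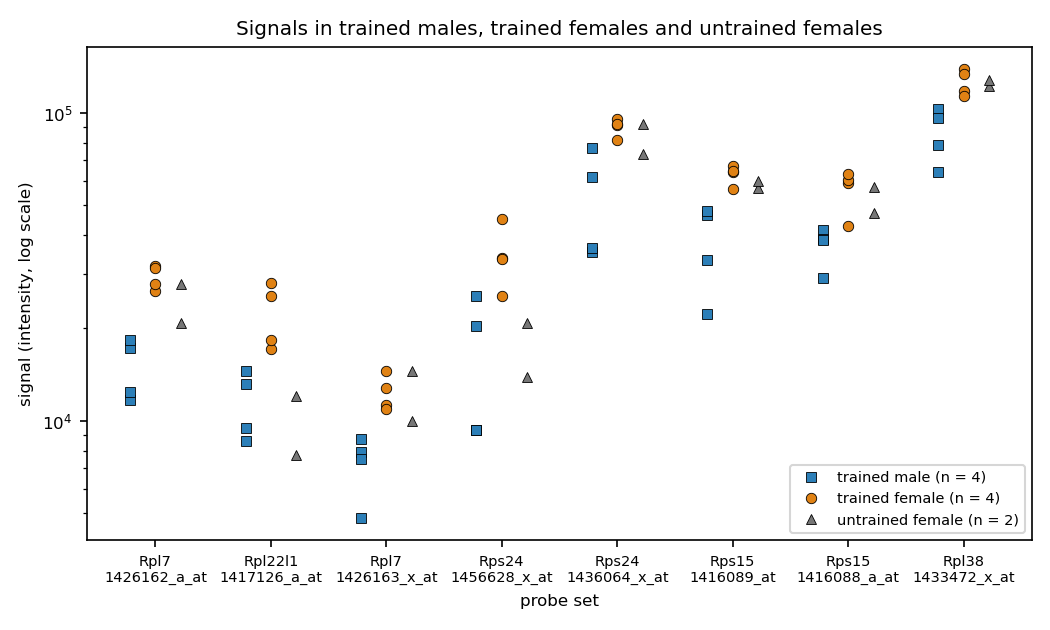
Signal (intensity, log axis) of the 8 member probe sets with the smallest unadjusted p for sex, in the 4 trained males (squares), 4 trained females (circles) and 2 untrained females (triangles). Each symbol is 1 mouse. For Rpl7 1426162_a_at the males lie between 11703.3 and 18243.9 and the trained females between 26374.9 and 31753.4.

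Probe sets of the same gene also disagreed on 2 arrays within the trained groups. Trained wildtype 1 and trained plakoglobin (+/-) 1 are the arrays with the high actin ratios given above. Their 18S ribosomal RNA controls were also apart: the middle probe set read 16452.8 and 21160.6, against 902.6 to 3359.9 on the others. In these 2 arrays 12 and 8 member probe sets (14.8% and 9.88%) lay more than 1 on the log2 scale below their own mean. Of all probe sets tested, 5.6% and 7.06% did. On each of the other arrays 0 or 1 member lay so low, where 1.47% to 5.9% of all probe sets did. Set against the 6 other trained arrays, without a test, members had a median log2 difference of -0.21 beside -0.01 over all probe sets. The difference was below -1 in 14 of 81 (17.3%, against 7.68% of all). Both arrays lay below all 6 others in 27 members (33.3%, against 13.4%) and above all 6 in 7 (8.64%, against 12.2%).

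Rps24 had the largest differences among genes with several tested probe sets. Probe set 1428530_x_at gave 11333.8 and 8306 on these 2 arrays, against 50255.8 to 76975.3 on the 6 other trained arrays, and 1436064_x_at gave 35365.9 and 36296.9 against 61957 to 95122.8. All 4 tested probe sets of Rps24 were lower, with log2 differences of -2.71 to -1.20. Rpl37a, a zinc-binding protein of the large subunit, had log2 differences of -2.34 to -1.09 in its 3 probe sets, with 13187 and 14608.3 in 1416217_a_at against 61600.7 to 84816.8.

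For other genes the probe sets parted company. Rps10 differed by -1.73 in 1 probe set and -0.05 in another. Of its bright probe sets, 1416719_a_at read 15226.7 and 14829.8 on the 2 arrays against 41534.9 to 62750.6, while 1434854_a_at read 35522 and 32801.5 against 27521.4 to 43682.8. Rpl35 ranged from -1.73 to -0.13, Rps7, a small-subunit protein that can bind Mdm2, from -0.93 to 0.26, and Rps29 from -0.88 to 0.18. Rps18 (-0.13 to 0.64), Rps28 (-0.04 to 0.16), Rps14 (0.20 and 0.33) and Rpsa (0.46), the laminin receptor of the small subunit, were near or above the other arrays. The span within a gene was over 1 in 7 of 19 genes with a median of 0.71, while the training changes of these genes spanned a median of 0.30. Which part of a transcript each probe set reads was not analysed here, and the part of RNA quality in these differences was not tested.

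**Figure D5:**
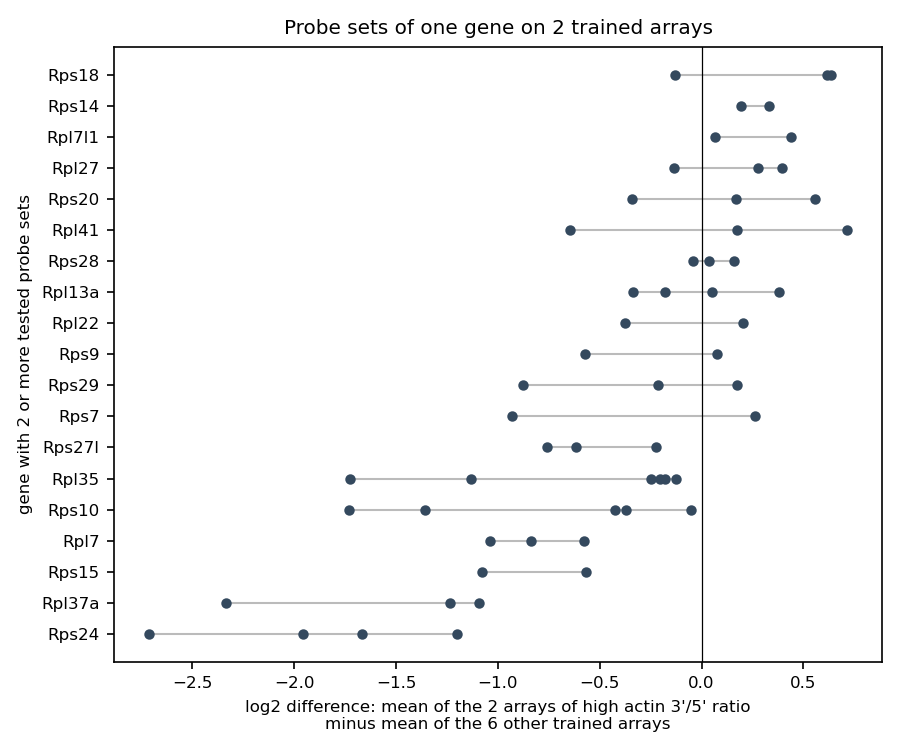
Points are tested probe sets, grouped by gene for the 19 genes with at least 2 of them. The horizontal axis is the mean log2 signal of trained wildtype 1 and trained plakoglobin (+/-) 1 minus the mean of the 6 other trained arrays. All points of Rps24 and Rpl37a lie below -1, while the points of Rps10 stretch from -1.73 to -0.05.

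Genes around the ribosome were described from lists, each gene by its brightest probe set with a single symbol, and in the training comparison 0 of their tested genes passed in any list. Of the stalk and fusion proteins 3 were tested and 3 were lower. Rplp0, the base of the stalk that recruits elongation factors, gave 82136.3 and 98787.3 on the arrays labelled untrained wildtype and untrained plakoglobin (+/-) and 41676.4 to 69676.5 on the 8 trained arrays. No trained array reached an untrained one, and the log2 change was -0.72 (SE 0.21, limma adjusted p = 0.282). Rplp2 (-0.18) and Fau (-0.09) differed less.

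Elongation factors and their companions were higher in 8 of 11 (median 0.05). Among them were Eef1b2, an exchange factor of the elongation factor that delivers transfer RNA (0.58), Eef1a2, the muscle form of that factor (-0.35), and Pabpc1, the poly(A) binding protein (-0.27). Initiation factors were higher in 10 of 17 (median 0.03), with Eif4a1, a helicase, at -1.38 (SE 0.79, limma adjusted p = 0.726). Eif4a1 read 1164.1 in trained wildtype 2, the array with the GAPDH ratio of 17.8. It read 5611.6 to 16172.2 on the other trained arrays and 17130.5 and 18131.3 on the untrained ones. Nucleolar and ribosome biogenesis genes were higher in 10 of 22 (median -0.03), with Polr1b, of RNA polymerase I, at 0.49, Npm1 at 0.46 and Fbl, the methyltransferase fibrillarin, at -0.44. Genes through which growth signals control translation were higher in 10 of 11 (median 0.20), among them Tsc1, an inhibitor of mTOR activity (0.40), and lower only for Eif4ebp2, a brake on initiation (-0.59). Mitochondrial ribosomal proteins were higher in 45 of 74 (median 0.06).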

How the data were processed

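Total RNA of 10 right ventricles was hybridised to 1 array per mouse. The deposited values are linear intensity signals that the authors made with MAS5 version 5.0, per the submitters' processing notes, already scaled by the authors: the mean left after trimming 2% at each end was the same on every array to within rounding. For detection calls, scan batches and a genome build the sources used here give nothing. Precision is limited by the number of arrays. The p values rest on the spread left over all arrays of a fit, which limma moderates across probe sets. In the training fit that spread includes the trained males, and an untrained group of 1 mouse has no spread of its own.

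Values under 104, the 10th percentile, were set to 104 before taking log2. Without the 64 control probe sets, the 13576 brightest by mean log2 signal (40th percentile and up) were tested. Of all probe sets 20393 carried 1 symbol in the array annotation, 691 several, and 1606 were not listed. The tests used limma 3.58.1 (lmFit and eBayes with trend, R 4.3.3) over all tested probe sets, two-sided, with Benjamini-Hochberg adjustment and a threshold of 0.05. Training was fitted over 10 mice with genotype and sex terms, genotype and sex over the 8 trained mice with both terms, and the interaction over 10 mice. The scripts were tested on simulated data.

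Members, gene lists and the rule for named genes were chosen with earlier results of these data known. Named were all genes with 3 or more probe sets, the 5 members per direction of smallest p in the training and genotype comparisons, paralogs, the 5 brightest and 5 dimmest genes, the genes whose probe sets differed most and least, and up to 3 genes of each list outside the members. The sex comparison and the fits without the 2 arrays of high actin ratio were added after seeing the data. Replicate numbers follow the order of the records and are only names. Alternatives were other normalizations, floors, filters and variance models, no sex term, females only, the GAPDH ratio as covariate, arrays or mice left out, 1 probe set per gene, and probe sets with several symbols. Start regions are from RefSeq, build GRCm38.p6. Protein sequences were not used here.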

Additional observations from a re-analysis of the deposited data

Results flagged for a closer look

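Within the 2 trained groups of 4 mice, the 81 tested probe sets were searched for a mouse that lay far from the other 3 by Dixon's criterion on log2 signals. Of 162 sets of 4 values, 11 held such a mouse, where about 8.1 are expected by chance (1 in 20).

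Trained wildtype 1 was the distant mouse in 6 of them, each time low. Rpl37a 1416217_a_at read 13187 there against 61940.5 to 84816.8 in the other trained wildtype mice, and Rpl37a 1416218_x_at read 1632.2 against 4623.5 to 5244.6. Rps24 1428530_x_at read 11333.8 against 59692.8 to 72209.8, and Rps24 1453362_x_at read 19451.7 against 74295.4 to 77099.5. Rpl11, a large-subunit protein that can bind Mdm2, read 27221 against 42594.8 to 46363.3, and Rps27l 1450925_a_at read 5788.6 against 10010.1 to 11172.9. In trained plakoglobin (+/-) 1, Rpl37a 1416217_a_at read 14608.3 against 61600.7 to 76058.2 in the other 3 mice of that group.

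Trained wildtype 3 was low for Rpl13a 1433928_a_at, with 1129.1 against 2267.3 to 2501.3, and for Rpl7l1 1452049_at, with 1371.2 against 2873.3 to 3265.9. Trained plakoglobin (+/-) 4 was high for Rpl37 1438291_x_at, with 9385.6 against 4847.6 to 5280.6, and for Rps29 1438859_x_at, with 126272.3 against 87330.2 to 91843.

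The 18S ribosomal RNA control probe sets were not used in any test. The 3' one read 170545.7 in trained wildtype 4, against 3015.4 to 57350.4 on the other trained arrays and 11869.4 and 26800.3 in the untrained mice. The 5' one read 21828.1 and the middle one 21160.6 in trained plakoglobin (+/-) 1, against 1523.2 and 1614.2, and 1495.2 and 1805.7, in the untrained mice. Trained wildtype 1 was also high, with 19846.7 for the 5' one and 16452.8 for the middle one.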

How the results depend on the processing

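The count of members past the threshold for training, 1 in the report, was 0 with the filter at the 60th percentile, where the Rps9 probe set is no longer tested, and 0 with 1 probe set per gene. It was 2 without the sex term, 2 among females only, and 4 without the 3 arrays of GAPDH ratio above 2 or the 2 of actin ratio above 2 (Rps9, Rpl22, Rpl22l1 and Rps24). The share of all probe sets that passed is not given for any alternative fit here. Such counts are therefore not read as particular to the members. Leaving out each mouse in turn gave counts of 0 to 3, the 0 without either untrained mouse, the 3 without trained plakoglobin (+/-) 1 and 2 without trained wildtype 1, and medians of 0.01 to 0.07. Genotype, interaction and sex counts were 0 under all alternatives run, including each mouse left out, and the genotype median then ranged from -0.15 to -0.03 and the interaction median from -0.08 to 0.02. Among alternatives for named probe sets, 0 changed direction. Counted as pairs of a probe set and a fit, 11 training results came past the threshold and 2 (Rps9) fell short of it. The 11 are repeats of the Rpl22, Rpl22l1 and Rps24 probe sets over several fits. The interaction without an untrained mouse could not be fitted. No paired analysis was possible because littermates cannot be matched from the labels. Untrained groups of 1 mouse and differences in age and sex limit the training comparison, and dim probe sets near the floor carry little information.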
